A study of Mus musculus with 12 samples.

Results

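The 10 genes described here were the NF-κB subunits Rela, Rel, Relb, Nfkb1 and Nfkb2, the IκB inhibitors Nfkbia, Nfkbib and Nfkbie, the atypical IκB protein Bcl3 and the ubiquitin-editing brake Tnfaip3 (A20). They were chosen by gene symbol, each symbol was found in 1 row of the expression tables, and the tables list 15002 genes in all. All 10 passed the filter on low counts and were tested with 11900 genes.

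NF-κB is a family of dimeric transcription factors. Rela, Rel and Relb carry a transactivation domain, whereas Nfkb1 and Nfkb2 encode precursors that are processed to p50 and p52. In resting cells, IκB proteins hold dimers in the cytoplasm until the IκB kinase complex marks them for degradation, and freed dimers then switch on inflammatory genes together with their own inhibitors, Nfkbia and Tnfaip3 among them. Bcl3 differs from the classical inhibitors because it binds p50 and p52 homodimers in the nucleus and can activate or repress their targets. In the intestinal epithelium this pathway responds to microbes and inflammatory cytokines.

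IEC4.1 is a mouse intestinal epithelial cell line, wild type by its labels. Cells were transfected with siRNA at 120 nM for 24 h by the study's methods. The siR_Ctrl cells received a scrambled sequence, and the siR_Nostrill cells a mix of 3 siRNAs that target Nostrill, a long noncoding RNA. IFN-γ was added to some cultures of each kind at 1 ng/ml for 4 h, by the study's figure legend on the sequencing, although the time label of every library reads 24 h. The 4 conditions had 3 libraries each, and all cells had therefore been transfected. Nostrill was not analysed here, so the knockdown was not checked in these libraries, which limits each siRNA comparison. The methods describe biological triplicates of 1 cell line, and p-values measure the spread between such cultures.

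The markers of the labelled cell type were low. Of 12 epithelial markers, 7 were listed, and 2 reached a median of 1 FPKM over the libraries, Tjp1 and Krt19 (1.56 FPKM). Krt8 (0.18 FPKM), Lgals4 (0.145 FPKM), Krt18 (0.05 FPKM), Vil1 (0.03 FPKM) and Cdx2 (0 FPKM) were at or near 0. FPKM counts fragments relative to transcript length and to the number of mapped fragments. Summed over the listed epithelial markers, the level ran from 7.51 to 17.8 FPKM, and most of it came from Tjp1 (median 8.63 FPKM). Fibroblast markers were abundant, with medians of 216 FPKM for Col1a1 and 1679 FPKM for Vim, and 6 of 8 reached a median of 1 FPKM. Lum (0.225 FPKM) and Thy1 (0.035 FPKM) did not, and Vim, at 1536 to 2056 FPKM, made up most of the sum. The fibroblast sum ran from 2030 to 2266 FPKM in siR_Ctrl cells, from 2426 to 2536 FPKM in siR_Ctrl + IFN-γ cells, from 1986 to 2186 FPKM in siR_Nostrill cells and from 2138 to 2266 FPKM in siR_Nostrill + IFN-γ cells. That sum was higher with IFN-γ in siR_Ctrl cells without overlap, and lower in siR_Nostrill + IFN-γ than in siR_Ctrl + IFN-γ cells without overlap. The FPKM of all genes, however, summed to between 570935 and 794809 per library, so such sums are not on a shared scale between groups. The part of the fibroblast sum in the results was not tested. Immune markers summed to between 1.37 and 2.58 FPKM, with medians of 1.42 FPKM for Cd68, the 1 that reached 1 FPKM, and 0 for Ptprc. Endothelial markers summed to at most 0.18 FPKM. In bulk RNA, fewer cells of a type and less RNA per cell cannot be told apart.

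The libraries held from 17824306 to 19093204 reads on genes. Counts of the 10 genes ran from 180 for the lowest library of Bcl3 to 5104 for the highest of Nfkb1. Libraries differed in a way that followed gene length. Across 11557 genes, Spearman's rho between a library's deviation from the mean of its group and effective gene length ran from -0.765 to 0.798. This is a description across genes. The extremes were siR_Ctrl + IFN-γ replicate 2 and siR_Ctrl replicate 1, so the trend varied within groups. The short members were Nfkbib (effective length 1143 nt), Nfkbia (1343 nt) and Bcl3 (1596 nt). At their lengths the smoothed trend of siR_Ctrl replicate 1, against the mean of all libraries, was -0.37, -0.30 and -0.23 on the log2 scale. At the length of Rel (7231 nt) it was 0.55, at that of Tnfaip3 (4178 nt) 0.26 and at that of Nfkb1 (3792 nt) 0.21. Rela, Relb, Nfkb2 and Nfkbie, of between 1969 and 2905 nt, moved by at most 0.13 in either direction. The trend also differed between the groups compared. Over the same genes, rho between log2 fold change and length was -0.437 for IFN-γ in siR_Ctrl cells, 0.492 for IFN-γ in siR_Nostrill cells, -0.669 and 0.272 for the siRNA without and with IFN-γ, and 0.664 for the interaction. A second fit removed this trend from each library. The trend was estimated from the same counts and was treated as known, so uncertainty in it is not part of those p-values. Its cause was not tested.

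**Figure D1:**
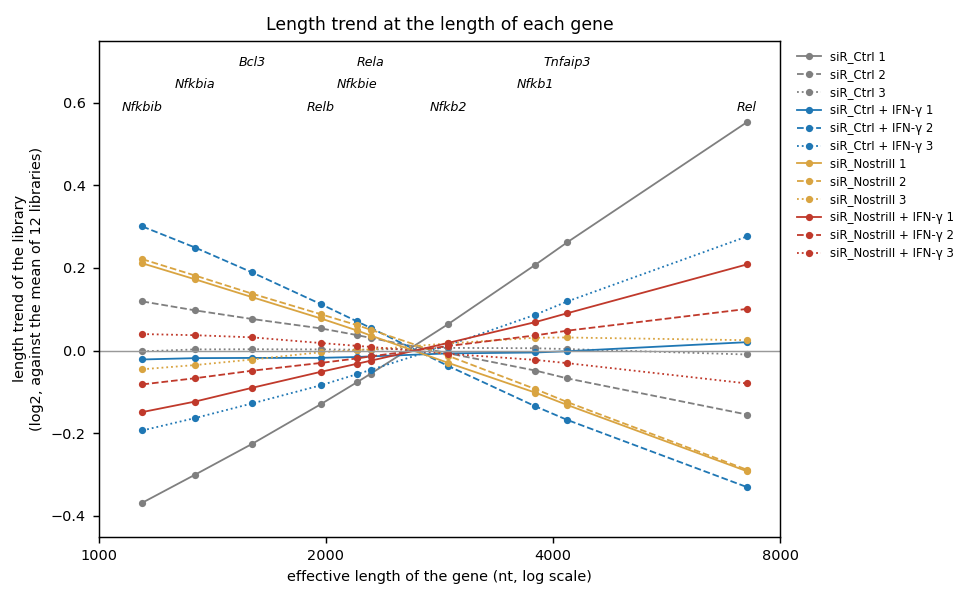
Smoothed length trend of each library (y axis, log2 difference from the mean of the 12 libraries) at the effective length of each of the 10 genes (x axis, nt, log scale), with 1 line per library and colours for the 4 conditions. The line of siR_Ctrl replicate 1 rises from -0.37 at Nfkbib to 0.55 at Rel, and that of siR_Ctrl + IFN-γ replicate 2 runs the opposite way.

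Levels were compared between genes in FPKM, a scale per length. In siR_Ctrl cells, Nfkb2 was highest at 77.02 ± 3.75 FPKM (SD, n = 3), followed by Rela at 69.6 ± 2.995 FPKM, Nfkbia at 64.7 ± 11.01 FPKM and Nfkb1 at 51.8 ± 9.75 FPKM. Nfkb2 lay above Rela in each library without overlap, whereas the ranges of Rela, Nfkbia and Nfkb1 overlapped from one neighbour to the next. A lower tier followed without overlap, with Nfkbie at 17.6 ± 0.677 FPKM, Relb at 16.2 ± 1.86 FPKM and Nfkbib at 13.2 ± 2.38 FPKM, whose neighbouring ranges overlapped. Bcl3 (7.54 ± 1.27 FPKM) and Tnfaip3 (7.36 ± 1.63 FPKM) could not be ordered, and Rel was lowest at 3.14 ± 1.11 FPKM.

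The order changed with IFN-γ. Nfkbia became the most abundant of the 10, at 89.2 ± 7.18 FPKM in siR_Ctrl + IFN-γ cells and 91.2 ± 0.740 FPKM in siR_Nostrill + IFN-γ cells. In the former its range overlapped that of Nfkb2 (80.8 ± 3.04 FPKM), and in the latter it lay apart from Rela (79.9 ± 3.46 FPKM). There Rela and Nfkb2 stood at nearly the same mean and overlapped, whereas Nfkb2 was the higher without IFN-γ. In siR_Ctrl + IFN-γ cells Nfkb2 stayed above Rela (72.2 FPKM) in each library. Bcl3 moved from place 8 to place 5 with either siRNA, at 21.0 ± 1.34 and 27.1 ± 3.43 FPKM. Its range overlapped that of Nfkbie, the next gene, in siR_Ctrl + IFN-γ cells and lay apart from it in siR_Nostrill + IFN-γ cells. Among the 5 subunits, Nfkb1 made up 23.7 ± 2.83% of the summed FPKM in siR_Ctrl cells, 25.97 ± 3.74% with IFN-γ, 19.1 ± 1.99% in siR_Nostrill cells and 25.2 ± 2.02% with both. Among the 3 IκB inhibitors, Nfkbia made up 67.5 ± 2.70%, 72.3 ± 0.410%, 67.3 ± 0.936% and 70.9 ± 0.523% in the same order. Shares within a class also follow the length trend, since the genes of a class differ in length.

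**Figure D2:**
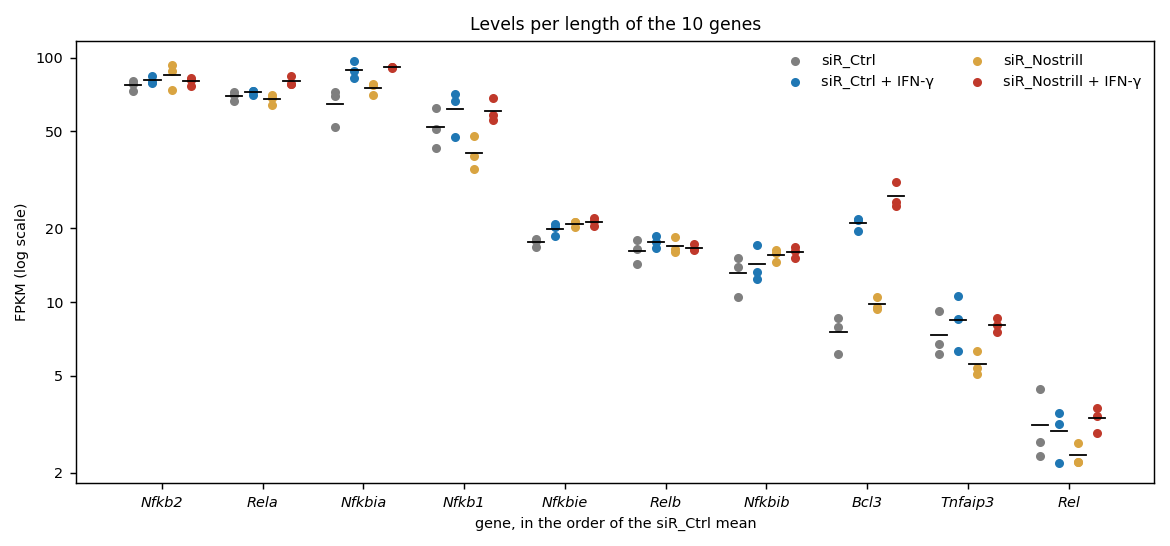
FPKM (y axis, log scale) of the 10 genes in the 12 libraries, ordered by the siR_Ctrl mean, with 1 point per library, a bar for the mean of 3 and colours for the conditions. The genes from Nfkb2 to Nfkb1 lie above 35 FPKM in every library, and Bcl3 shows 2 levels, 6.12 to 10.5 FPKM without IFN-γ and 19.5 to 31.04 FPKM with it.

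The response to IFN-γ was compared within each siRNA, on CPM, the reads of a gene relative to all reads of its library, with TMM normalization. Bcl3 rose about 3-fold with either siRNA and was the 1 member called in siR_Ctrl cells. In siR_Nostrill cells Bcl3 and Nfkb1 were called. Here called means a Benjamini-Hochberg adjusted p below 0.05 over the 11900 genes by the quasi-likelihood test of edgeR. With siR_Ctrl, 5.45% of all genes were called and 4.71% were called higher. With siR_Nostrill the shares were 6.78% and 5.24%. The members' median log2 fold change was 0.22 in siR_Ctrl cells and 0.24 in siR_Nostrill cells, against -0.01 and -0.00 over all genes tested. After removal of the length trend, 5 of 10 members were called higher in siR_Ctrl cells, where 8.13% of all genes were, and 5 of 10 in siR_Nostrill cells, where 11.2% were. Nfkb1, Nfkbia, Bcl3 and Tnfaip3 were called with both siRNAs in that fit, Nfkbie only with siR_Ctrl and Rela only with siR_Nostrill. In CPM, libraries with IFN-γ lay above those without it, with no overlap, for 5 members in siR_Ctrl cells (9.57% of all genes) and for 6 members in siR_Nostrill cells (18.5% of all genes).

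**Figure D3:**
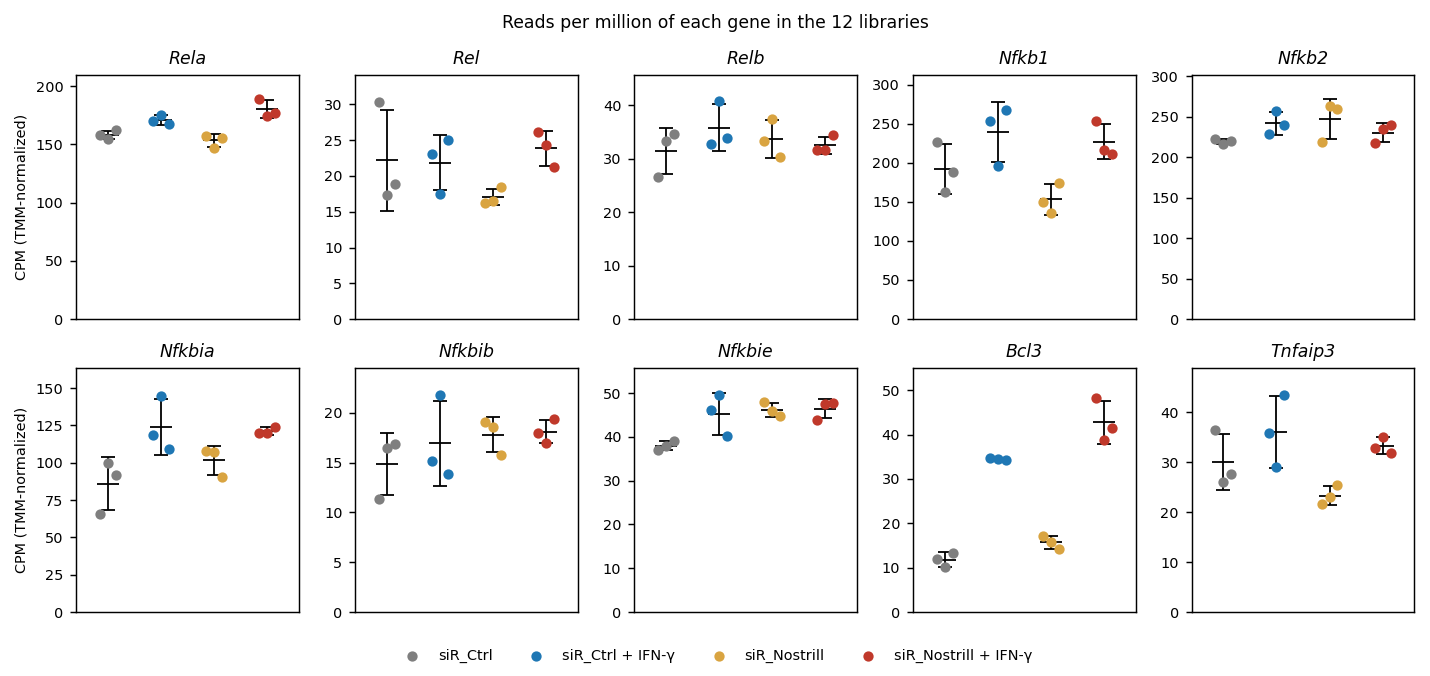
CPM (y axis, TMM-normalized, from 0) of each of the 10 genes in the 12 libraries, with points for libraries and a black bar with whiskers for the mean ± SD of 3. In the Bcl3 panel both IFN-γ groups stand clear of both groups without it, whereas the Rel, Relb and Nfkbib panels show overlap of siR_Ctrl libraries with and without IFN-γ.

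Bcl3 (gene ID 12051, chromosome 7, 19808462 to 19822824, GRCm38.p6) had 11.9, 10.1 and 13.4 CPM in the siR_Ctrl libraries and 34.7, 34.5 and 34.2 CPM in those with IFN-γ. The siR_Nostrill libraries held 17.2, 15.7 and 14.3 CPM, and the siR_Nostrill + IFN-γ libraries 48.2, 38.7 and 41.5 CPM. For each siRNA, the lowest library with IFN-γ was thus more than double the highest without it. The log2 fold change was 1.55 ± 0.12 (SE) in siR_Ctrl cells (edgeR adjusted p = 5.63e-06, 2.92-fold) and 1.44 ± 0.12 in siR_Nostrill cells (edgeR adjusted p = 9.61e-06, 2.72-fold). The values were 1.48 and 1.57 with the length trend removed.

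Nfkbia (gene ID 18035, chromosome 12, 55489409 to 55492647) encodes IκBα, the classical inhibitor that NF-κB itself induces. It had 65.9, 100.1 and 91.5 CPM in siR_Ctrl cells and 118, 145 and 109 CPM with IFN-γ. The siR_Nostrill libraries held 108, 107 and 90.4 CPM without and 120, 119.7 and 124 CPM with IFN-γ. Neither pair of groups overlapped. The log2 fold change was 0.53 ± 0.15 in siR_Ctrl cells (edgeR adjusted p = 0.0762) and 0.25 ± 0.15 in siR_Nostrill cells (edgeR adjusted p = 0.33), and neither was called. With the length trend removed, Nfkbia lay at 81.1, 93.6 and 91.3 CPM in siR_Ctrl cells and at 119.8, 122 and 122 CPM with IFN-γ. The corresponding values in siR_Nostrill cells were 95.6, 94.4 and 92.6 CPM and 131, 125 and 121 CPM. The SD fell in 3 of the 4 groups on that scale and rose from 2.55 to 4.82 CPM in siR_Nostrill + IFN-γ cells. The rise was called at 0.45 ± 0.06 with siR_Ctrl (edgeR adjusted p = 0.000122, with a range over 21 alternatives from 0.000122 to 0.359) and 0.42 ± 0.06 with siR_Nostrill (edgeR adjusted p = 0.000236, range 0.000236 to 0.542).

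The other classical inhibitors moved less. Nfkbie (gene ID 18037, chromosome 17, 45555700 to 45563169) encodes IκBε. Its siR_Ctrl libraries held 37.0, 38.0 and 39.0 CPM, and those with IFN-γ 46.1, 49.6 and 40.1 CPM. These groups did not overlap, and the log2 fold change was 0.25 ± 0.09 (edgeR adjusted p = 0.174). With the trend removed it was 0.24 (edgeR adjusted p = 0.0278, range over 21 alternatives 0.0278 to 0.52). In siR_Nostrill cells Nfkbie was already at 47.9, 45.9 and 44.7 CPM and stood at 43.9, 47.6 and 47.7 CPM with IFN-γ, a log2 fold change of 0.01 ± 0.09. Nfkbib (gene ID 18036, chromosome 7, 28758251 to 28766644), which encodes IκBβ, ran from 11.3 to 21.8 CPM over all libraries. Its log2 fold changes were 0.19 ± 0.19 and 0.02 ± 0.19, with overlap of both pairs of groups. The 95% intervals reached from -0.23 to 0.60 and from -0.38 to 0.43. Removal of the length trend gave 0.07 ± 0.09 and 0.22 ± 0.08 (edgeR adjusted p = 0.703 and 0.0811), with siR_Nostrill libraries apart in that case. Nfkbib was called in none of the 21 alternatives with either siRNA.

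Of the subunits, Nfkb1 (gene ID 18033, chromosome 3, 135584655 to 135691969) moved most. Its libraries held 226, 162 and 188 CPM in siR_Ctrl cells and 254, 196 and 268 CPM with IFN-γ, with overlap. In siR_Nostrill cells they held 149.5, 136 and 174 CPM without and 253, 216 and 211 CPM with IFN-γ, with no overlap. The log2 fold change was 0.31 ± 0.15 (edgeR adjusted p = 0.385) in the former and 0.57 ± 0.15 (edgeR adjusted p = 0.0493) in the latter. The second value stood just inside the threshold and was called in 9 of 21 alternatives, with adjusted p from 7.14e-05 to 0.223. Leaving out any 1 library of siR_Nostrill or siR_Nostrill + IFN-γ cells ended the call, as did leaving out siR_Ctrl replicate 3 or siR_Ctrl + IFN-γ replicate 1, with log2 fold changes from 0.48 to 0.67. With the length trend removed, Nfkb1 was called with both siRNAs, at 0.39 ± 0.09 (edgeR adjusted p = 0.00828, range over alternatives 0.000527 to 0.684) and 0.49 ± 0.09 (edgeR adjusted p = 0.0014).

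Rela (gene ID 19697, chromosome 19, 5637442 to 5648134), the main transactivating subunit of the canonical pathway, had the smallest standard errors of the 10. It held 158, 155 and 162 CPM in siR_Ctrl cells, 170, 176 and 167 CPM with IFN-γ, 157, 147 and 156 CPM in siR_Nostrill cells and 189, 174 and 177 CPM with both. Libraries with IFN-γ lay above those without it for each siRNA, by 0.11 ± 0.07 (edgeR adjusted p = 0.504) and 0.23 ± 0.07 (edgeR adjusted p = 0.0612) on the log2 scale. The second value was called with the trend removed, at 0.27 (edgeR adjusted p = 0.00513, range over 21 alternatives 0.00144 to 0.262). Nfkb2 (gene ID 18034, chromosome 19, 46300994 to 46312400), the precursor of the noncanonical pathway, had log2 fold changes of 0.14 ± 0.09 and -0.10 ± 0.09. Its siR_Ctrl libraries lay between 216 and 223 CPM and those with IFN-γ between 228 and 257 CPM, whereas siR_Nostrill libraries with and without IFN-γ overlapped. Relb (gene ID 19698, chromosome 7, 19606217 to 19629438), its usual partner, gave 0.19 ± 0.13 and -0.05 ± 0.13, with overlap in both. With the trend removed, Nfkb2 gave 0.17 ± 0.07 and -0.12 ± 0.07, and Relb 0.16 ± 0.08 and 0.03 ± 0.08. None of these was called.

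Rel (gene ID 19696, chromosome 11, 23736847 to 23770969) encodes c-Rel, best known from lymphocytes, and was the longest transcript and the one that followed the length trend most. Its siR_Ctrl libraries held 30.3, 17.4 and 18.9 CPM, and with the trend removed 20.7, 19.4 and 19.04 CPM. The log2 fold change with IFN-γ was -0.02 ± 0.20 in siR_Ctrl cells and 0.48 ± 0.20 in siR_Nostrill cells (edgeR adjusted p = 0.969 and 0.196). With the trend removed these were 0.14 ± 0.07 and 0.22 ± 0.07 (edgeR adjusted p = 0.262 and 0.051, with ranges over 21 alternatives of 0.203 to 1 and 0.0173 to 0.455). Without siR_Ctrl replicate 1 the siR_Nostrill value of Rel, 0.48, had an edgeR adjusted p of 0.048.

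Tnfaip3 (gene ID 21929, chromosome 10, 19000910 to 19015410) encodes A20, which dismantles the ubiquitin chains that activate IκB kinase. It held 36.4, 26.1 and 27.7 CPM in siR_Ctrl cells and 35.8, 29.0 and 43.4 CPM with IFN-γ, with overlap. In siR_Nostrill cells it held 21.6, 23.0 and 25.4 CPM without and 32.9, 35.1 and 31.8 CPM with IFN-γ, with no overlap. The log2 fold changes were 0.26 ± 0.16 (edgeR adjusted p = 0.508) and 0.51 ± 0.16 (edgeR adjusted p = 0.0813). The values were closer to each other once the length trend was removed, at 0.35 ± 0.08 (edgeR adjusted p = 0.0105, range over 21 alternatives 0.0105 to 0.811) and 0.40 ± 0.08 (edgeR adjusted p = 0.00324, range 0.00324 to 0.253), and both were called. In the fit to the counts, the siR_Ctrl value ran from 0.11 to 0.42 when 1 library was left out.

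**Figure D4:**
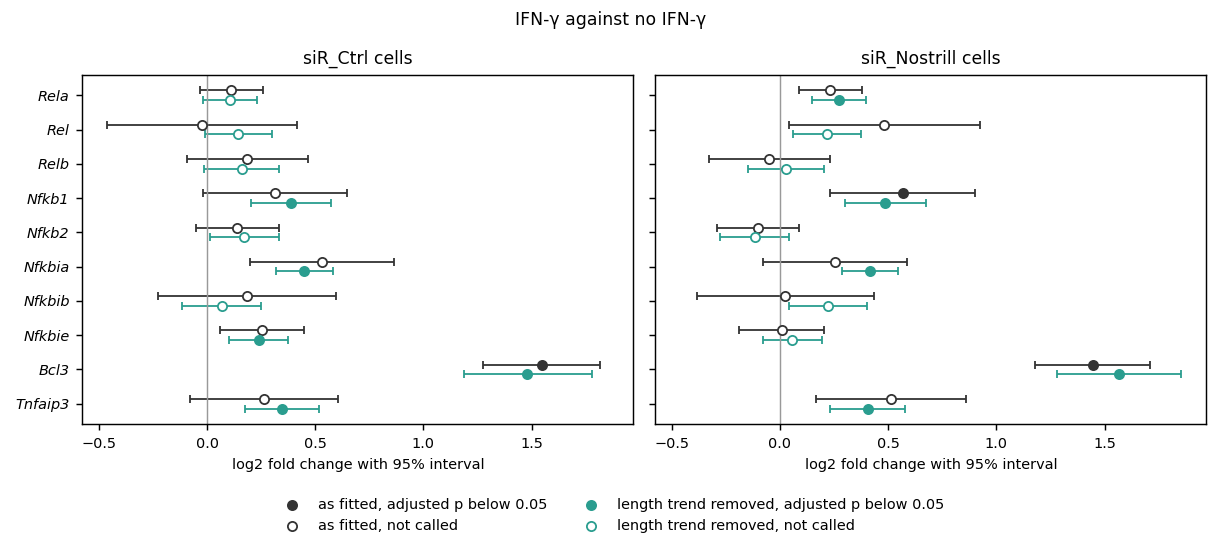
Log2 fold change with IFN-γ (x axis, with 95% intervals) of the 10 genes in siR_Ctrl and siR_Nostrill cells, from the fit to the counts (black) and with the length trend removed (green), where filled points had an adjusted p below 0.05. Bcl3 stands apart near 1.5 in both panels, and for Rel, Nfkb1, Nfkbia and Tnfaip3 the green intervals are narrower than the black ones.

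Effects of the siRNA were compared next, without IFN-γ, with it and averaged over both states. No member was called by edgeR in these 3 comparisons, against 0.218%, 0.429% and 2.16% of all genes. Those background counts, of 26, 51 and 257 genes, ranged from 0 to 37, from 0 to 72 and from 83 to 254 when 1 library was left out. Without IFN-γ the count was 0 without siR_Ctrl replicate 1, any siR_Nostrill library or siR_Nostrill + IFN-γ replicate 2, and with IFN-γ it was 0 without siR_Nostrill + IFN-γ replicate 1 or 3. Without IFN-γ, 3 members had an unadjusted p below 0.05 (13.8% of all genes). DESeq2 and limma called 0 members, against 257 of 10923 and 20 of 11095 genes. With IFN-γ, 1 member had such a p (14.5% of all genes). Again DESeq2 and limma called 0 members, against 601 of 10633 and 135 of 11095 genes. Averaged, 2 members had an unadjusted p below 0.05 (16.5% of all genes). In that comparison DESeq2 called 1 member (Bcl3), against 6.80% of the genes it tested, and limma 0, against 316 of 11095 genes. With the length trend removed, 2 members were called in the averaged comparison, Bcl3 higher and Tnfaip3 lower, where 13.6% of all genes were called.

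In the fit to the counts, Bcl3 was the member most separated by the siRNA. Each siR_Nostrill library lay above each siR_Ctrl library, both without IFN-γ (14.3 to 17.2 against 10.1 to 13.4 CPM) and with it (38.7 to 48.2 against 34.2 to 34.7 CPM). For the siRNA, the share of all genes whose groups lay apart was not counted. The separations of Bcl3, and of Tnfaip3 and Nfkbie below, therefore stand without that background. The log2 difference of Bcl3 was 0.41 ± 0.12 without IFN-γ (edgeR adjusted p = 0.225), 0.31 ± 0.12 with it (edgeR adjusted p = 0.242) and 0.36 ± 0.09 averaged (edgeR adjusted p = 0.0538, 1.29-fold). The averaged value missed the threshold in limma (adjusted p = 0.0546) and passed it in DESeq2 (adjusted p = 0.00367) and with the length trend removed (0.32, edgeR adjusted p = 0.0413), within a range over 20 alternatives of 0.00367 to 0.141. With the trend removed the difference was 0.28 ± 0.14 without IFN-γ (edgeR adjusted p = 0.312, range over 21 alternatives 0.0821 to 0.592) and 0.36 ± 0.13 with it (edgeR adjusted p = 0.075, range 0.0219 to 0.641). The lowest of these, from a replicate block with the trend removed, was the 1 alternative that called it with IFN-γ. That alternative called 1891 of 11900 genes in the same comparison, against 51 in the fit to the counts.

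Tnfaip3 lay the other way. Its siR_Nostrill libraries (21.6 to 25.4 CPM) were below those of siR_Ctrl (26.1 to 36.4 CPM) without IFN-γ, whereas the groups with IFN-γ overlapped. The log2 differences were -0.37 ± 0.16 without IFN-γ (edgeR adjusted p = 0.355) and -0.24 ± 0.11 averaged (edgeR adjusted p = 0.304). The former was -0.22 ± 0.08 with the trend removed (edgeR adjusted p = 0.168, range over 21 alternatives 0.163 to 0.926). It was -0.21 when siR_Ctrl replicate 1 was left out. The averaged value was -0.19 with the trend removed (edgeR adjusted p = 0.0432, range over 20 alternatives 0.0432 to 0.55). Nfkbie was above siR_Ctrl without overlap only in the absence of IFN-γ (44.7 to 47.9 against 37.0 to 39.0 CPM), by 0.28 ± 0.09 (edgeR adjusted p = 0.25), and the averaged difference was 0.16 ± 0.06 (edgeR adjusted p = 0.233). Trend removal gave 0.23 (edgeR adjusted p = 0.0685, range over 21 alternatives 0.0685 to 0.615) and 0.14 (edgeR adjusted p = 0.0553, range over 20 alternatives 0.0553 to 0.412).

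The remaining members gave averaged log2 differences of 0.01 ± 0.05 for Rela, -0.13 ± 0.14 for Rel, -0.02 ± 0.09 for Relb, -0.20 ± 0.11 for Nfkb1, 0.05 ± 0.06 for Nfkb2, 0.11 ± 0.11 for Nfkbia and 0.18 ± 0.13 for Nfkbib. With the trend removed, Nfkb1 gave -0.16 ± 0.06 (edgeR adjusted p = 0.0932, range over 20 alternatives 0.0192 to 0.624) and was called only when a replicate block was added to that fit. With that block, 1872 of 11900 genes were called. Removal of the trend alone gave 0.14 ± 0.06 for Nfkbib (edgeR adjusted p = 0.148, range 0.148 to 0.789). The 95% interval for Rela, from -0.09 to 0.12, was the narrowest of these and left room for less than a 1.1-fold difference. That for Rel ran from -0.44 to 0.18, so its spread left room for a difference of more than 1.3-fold.

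**Figure D5:**
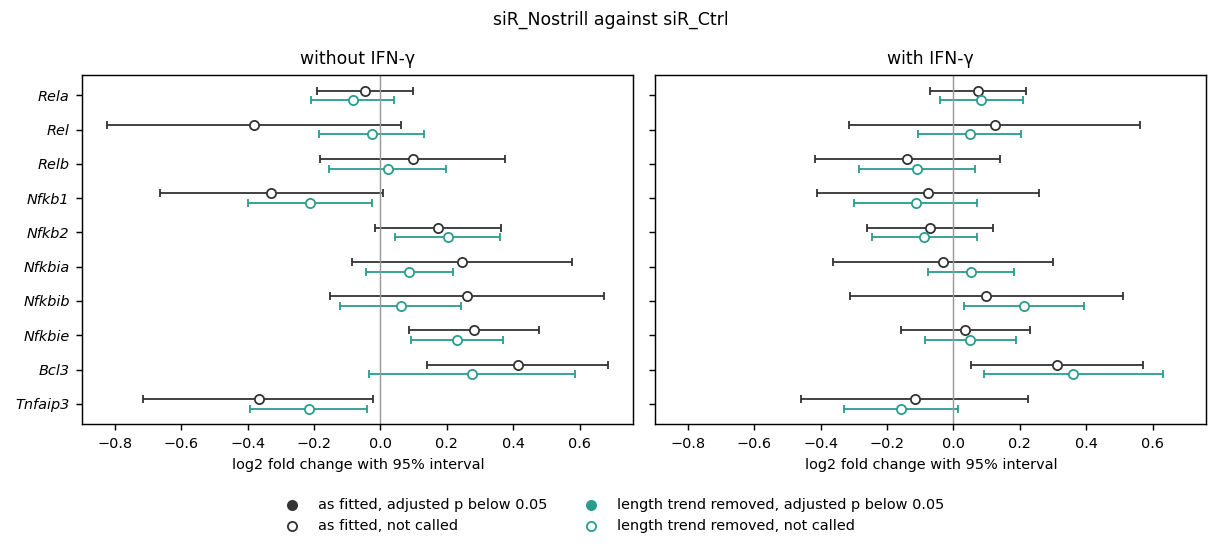
Log2 difference between siR_Nostrill and siR_Ctrl cells (x axis, with 95% intervals) of the 10 genes without and with IFN-γ, from the fit to the counts (black) and with the length trend removed (green), where open points were not called. No point is filled, and Bcl3 is the 1 gene whose black interval lies above 0 in both panels.

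Whether the siRNA changed the response to IFN-γ was tested as an interaction. No gene was called by edgeR (0% of all genes), while 1277 genes had an unadjusted p below 0.05, none of them a member, and DESeq2 and limma called 0. Among the members, the interaction on the log2 scale ran from -0.28 ± 0.21 for Nfkbia to 0.50 ± 0.28 for Rel. Those values became -0.03 ± 0.09 and 0.07 ± 0.10 with the trend removed, and the members then ran from -0.29 ± 0.10 for Nfkb2 to 0.17 ± 0.08 for Rela. In that fit Nfkb2 was the 1 member with an unadjusted p below 0.05 (0.0151, edgeR adjusted p = 0.184, range over 20 alternatives 0.0838 to 0.798), against 2262 of all genes (19%). For Bcl3 it was -0.10 ± 0.17, with a 95% interval from -0.48 to 0.27. Responses called with 1 siRNA and not with the other, as for Nfkb1, are therefore not shown to differ between them.

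Genes around the 10 members were followed in 4 lists. Of 26 genes for IκB kinase and its adaptors, 26 were tested, and IFN-γ raised 6 and lowered 0 in siR_Ctrl cells and raised 5 and lowered 1 in siR_Nostrill cells, with median log2 fold changes of 0.08 and 0.18. Over all genes 4.71% and 5.24% were raised, which serves for the other lists too. The 5 with the largest change were the same 5 genes with either siRNA. Ripk2, the kinase that relays signals from NOD receptors, rose from 36.4 ± 1.73 to 126 ± 4.78 CPM (SD, n = 3) in siR_Ctrl cells and from 43.4 ± 4.89 to 143 ± 0.550 CPM in siR_Nostrill cells. Rnf31, the catalytic subunit of the linear ubiquitin ligase, rose by 1.67 ± 0.08 and 1.43 ± 0.08 on the log2 scale. Myd88, the adaptor of Toll-like receptors, rose by 1.39 ± 0.08 and 1.26 ± 0.08. Ripk1 rose by 0.96 ± 0.09 with each siRNA, and Map3k8 by 1.27 ± 0.13 and 0.91 ± 0.13. The largest edgeR adjusted p among these 10 values was 0.000992. For the siRNA averaged over both states, edgeR called 0 genes of this list, limma 0 and DESeq2 2, and 9 had an unadjusted p below 0.05. Over all genes, 16.5% had such a p and DESeq2 called 6.80% of those it tested.

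Of 20 other brakes on the pathway, 19 were tested. In siR_Ctrl cells 3 rose and 0 fell, and in siR_Nostrill cells 3 rose and 1 fell, with medians of -0.01 and 0.09. Nfkbiz, an atypical IκB protein like Bcl3, rose from 73.6 ± 7.03 to 139.5 ± 21.2 CPM and from 61.1 ± 5.45 to 140.2 ± 8.19 CPM (log2 0.92 ± 0.12 and 1.198 ± 0.12, edgeR adjusted p = 0.000453 and 5.07e-05). Tnip2, an A20-binding protein, rose by 0.76 ± 0.17 (edgeR adjusted p = 0.023) and Zc3h12a, an RNase that degrades cytokine mRNA, by 0.54 ± 0.11 (edgeR adjusted p = 0.00887) in siR_Ctrl cells. In siR_Nostrill cells N4bp1 rose by 0.76 ± 0.13, Tank rose by 0.46 ± 0.11 and Pdlim2, which targets Rela for degradation, fell by 0.64 on the log2 scale (edgeR adjusted p = 0.0028, 0.0257 and 0.0337). Nkiras2, a Ras-like protein that interacts with IκB proteins, was the 1 gene of this list called for the siRNA, at 0.24 ± 0.05 averaged over both states (edgeR adjusted p = 0.0431), where 2.16% of all genes were called. In that comparison DESeq2 called 2 of the 19 (against 6.80% of the genes it tested) and limma 1 (against 316 of 11095 genes). An unadjusted p below 0.05 was found for 3 (16.5% of all genes).

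Among receptors and ligands, 20 of 22 were listed and 14 were tested. IFN-γ raised 4 in siR_Ctrl cells and 6 in siR_Nostrill cells and lowered 0, with medians of 0.41 and 0.32. The TNF receptor Tnfrsf1a rose from 85.9 ± 0.736 to 192 ± 8.29 CPM and from 99.5 ± 1.077 to 196 ± 3.23 CPM. Tlr3, the receptor for double-stranded RNA, rose from 2.42 ± 0.760 to 13.2 ± 1.88 CPM and from 3.05 ± 0.638 to 19.01 ± 0.279 CPM. Tlr2 rose by 0.95 ± 0.11 and 0.97 ± 0.11 on the log2 scale, and Il1rl1, the receptor of the cytokine Il33, by 0.78 ± 0.17 and 1.05 ± 0.17. Il33 itself was called in siR_Nostrill cells at 0.71 ± 0.17 (edgeR adjusted p = 0.0249). For the siRNA averaged over both states, edgeR and limma called 0 of the 14, against 2.16% of all genes by edgeR and 316 of 11095 genes by limma. DESeq2 called 1 (against 6.80% of the genes it tested), and 5 had an unadjusted p below 0.05 (16.5% of all genes).

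Of 31 genes commonly listed as NF-κB targets, 28 were listed and 25 tested. In siR_Ctrl cells 9 rose and 0 fell, and in siR_Nostrill cells 7 rose and 1 fell, with medians of 0.30 and 0.40. Irf1, a transcription factor of the interferon response, rose most, from 95.2 ± 9.56 to 1133 ± 55.2 CPM and from 109 ± 6.65 to 1022 ± 29.8 CPM. The chemokines Cx3cl1 and Ccl2 rose by 1.41 ± 0.08 and 1.081 ± 0.15 in siR_Ctrl cells and by 1.34 ± 0.08 and 1.11 ± 0.15 in siR_Nostrill cells on the log2 scale. Il6 was close to the floor of these libraries, at 0.618 ± 0.199 and 1.86 ± 0.245 CPM in siR_Ctrl cells and 0.684 ± 0.297 and 2.44 ± 0.335 CPM in siR_Nostrill cells, and was called in both. Ripk2 is also a member of this list. The chemokine Ccl5 was the 1 target called for the siRNA, at 1.005 ± 0.16 on the log2 scale averaged over both states (edgeR adjusted p = 0.011), against the 2.16% of all genes called. DESeq2 called 3 of the 25 (against 6.80% of the genes it tested) and limma 1 (against 316 of 11095 genes). Of the 25, 7 had an unadjusted p below 0.05 (16.5% of all genes). Many genes of this list answer to other factors too. With the length trend removed, the numbers raised and lowered by IFN-γ in siR_Ctrl cells were 6 and 0 for the IκB kinase list, 5 and 1 for the other brakes, 6 and 1 for receptors and ligands and 12 and 1 for the targets. In siR_Nostrill cells they were 8 and 5, 4 and 3, 7 and 2, and 12 and 1 in that order. In that fit 8.13% of all genes were raised and 3.02% lowered in siR_Ctrl cells, and 11.2% raised and 7.70% lowered in siR_Nostrill cells. In the fit to the counts 0.748% and 1.55% of all genes were lowered. In edgeR's fit to the counts no gene of the 4 lists was called for the siRNA in either state alone or for the interaction. Between 1 and 7 genes of a list had an unadjusted p below 0.05. Of all genes, 13.8%, 14.5% and 10.7% had such a p for the siRNA without IFN-γ, with it and for the interaction. DESeq2 and limma called at most 2 genes of a list. Over all genes they called 257 of 10923 and 20 of 11095 for the siRNA without IFN-γ. With IFN-γ they called 601 of 10633 and 135 of 11095, and for the interaction 0.

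The promoters were read from RefSeq (GRCm38.p6) as the 250 bases before each annotated start, and 8 of 10 members had 1 or more such windows, 11 in all. Nfkb1 and Relb were not matched. The windows were searched on both strands for the decameric κB consensus and for the interferon response motif GAAANNGAAA. A κB match was found in 7 of 11 windows, against 7.25% of 32851 windows of all genes. These windows belong to 5 of 8 members (Rel, Nfkb2, Nfkbia, Nfkbie and Tnfaip3), against 8.23% of 27025 genes with a window. Of the 7 windows, 3 are of Nfkb2, a pair of which overlap. The interferon response motif was found in 0 of 11, against 2.98% of all windows. Neither the Bcl3 window nor those of Rela and Nfkbib held either motif. The window ends 250 bases before the start, and sites farther away were not searched. The stretches below lie outside the annotated span of each gene and are given 5′ to 3′ on the strand of the gene, with κB matches in capitals. They are shown to set Bcl3, the member with the largest rise, beside the 4 members whose match lies in such a stretch. The Nfkb2 windows lie within the annotated gene and are not printed.
Bcl3 (chr7:19822825-19823005, minus strand): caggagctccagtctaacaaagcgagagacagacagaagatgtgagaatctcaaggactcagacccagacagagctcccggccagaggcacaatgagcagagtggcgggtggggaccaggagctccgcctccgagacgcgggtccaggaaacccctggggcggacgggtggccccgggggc
Nfkbia (chr12:55492648-55492897, minus strand): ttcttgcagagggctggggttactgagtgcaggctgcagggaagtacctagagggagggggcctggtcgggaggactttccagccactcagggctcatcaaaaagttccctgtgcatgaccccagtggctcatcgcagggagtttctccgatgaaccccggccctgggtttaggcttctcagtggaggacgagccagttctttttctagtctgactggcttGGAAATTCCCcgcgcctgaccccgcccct
Tnfaip3 (chr10:19015411-19015660, minus strand): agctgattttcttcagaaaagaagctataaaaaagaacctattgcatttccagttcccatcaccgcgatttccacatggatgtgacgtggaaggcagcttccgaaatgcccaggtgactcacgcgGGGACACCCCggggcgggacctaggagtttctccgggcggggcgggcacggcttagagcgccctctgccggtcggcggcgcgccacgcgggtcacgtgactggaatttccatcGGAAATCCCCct
Nfkbie (chr17:45555450-45555699, plus strand): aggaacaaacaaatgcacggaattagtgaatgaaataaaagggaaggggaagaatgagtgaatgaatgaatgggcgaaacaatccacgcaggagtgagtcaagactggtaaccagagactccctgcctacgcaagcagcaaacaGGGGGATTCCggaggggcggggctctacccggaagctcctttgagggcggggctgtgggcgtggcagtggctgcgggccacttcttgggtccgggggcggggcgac
Rel (chr11:23770970-23771219, minus strand): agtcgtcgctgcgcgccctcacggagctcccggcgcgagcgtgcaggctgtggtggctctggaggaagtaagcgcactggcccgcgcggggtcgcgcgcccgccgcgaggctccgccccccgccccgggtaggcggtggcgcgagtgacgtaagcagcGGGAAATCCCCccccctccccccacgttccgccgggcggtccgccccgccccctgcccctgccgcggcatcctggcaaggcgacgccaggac

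The Nfkbia match lies 29 to 20 bases before the start. Tnfaip3 has a match at 12 to 3 bases and another at 125 to 116 bases before its start. In Rel 2 overlapping matches span 92 to 82 bases before the start, and that of Nfkbie spans 106 to 97 bases. Among these, Nfkbia and Tnfaip3 were called with IFN-γ for both siRNAs once the length trend was removed, Nfkbie for siR_Ctrl and Rel for neither. Nfkb2, with matches in its 3 windows, was called with neither siRNA, and Rela, with none, was called for siR_Nostrill. Bcl3, with the largest rise, has no match in its window. The matches are letters in a window and say nothing on binding.

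The genes most like each member over the 12 libraries were taken by Pearson's r of log2 CPM, as a description over 12 points that share depth, condition and the length trend. For Bcl3 they were Lgals3bp (r = 0.994), Oasl2 (0.99) and Parp11 (0.987). For Nfkbia they were Arl6ip5 (0.994), Rhoc (0.977) and Pnp (0.973), and for Nfkb1 Crybg1 (0.986), Jcad (0.976) and Slit2 (0.972). Rel was closest to Klf7 (0.984), Slc30a7 and Smg1 (0.983 each), and Tnfaip3 to Ankrd33b (0.976), Kat2b and Arhgef3 (0.975 each). The nearest genes of Rela were Vps37c (0.948), Rbms2 (0.943) and Inhbb (0.942), and those of Relb Wdr34 (0.954), Pkig and Eif4ebp1 (0.941 each). For Nfkbib they were Mrpl4 (0.978), Tmem259 (0.976) and 2610524H06Rik (0.971), for Nfkbie Cacfd1 (0.959), Tpm3 (0.949) and Grn (0.939), and for Nfkb2 Zfp949 (0.873), Trim45 (0.847) and Stbd1 (0.846). No member was among the 3 nearest genes of another.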

How the data were processed

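mRNA of IEC4.1 cells was enriched with oligo(dT) and sequenced on a DNBSEQ platform in 4 conditions with 3 libraries each, grouped by the labels. The authors filtered reads with SOAPnuke, used HISAT2 and Bowtie2 to align them to GRCm38.p6, and applied GATK (the submitters' processing notes also name mm10). The sources used here do not name the counting tool. Per gene and library, the authors deposited an estimated count, an FPKM and a TPM value. Estimated counts, whole for 90.6% to 91.6% of genes within a tolerance of 1e-09, were rounded.

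Counts were tested with edgeR 4.0.16 in R 4.3.3 (quasi-likelihood test, TMM, default filter) on the 12 libraries together, with p-values adjusted by Benjamini-Hochberg and a threshold of 0.05, in 6 comparisons. The length trend was removed as an offset per library (lowess, span 0.3, of the deviation from the mean of all libraries on log2 effective length). The offset was not blind to condition, so any real difference between conditions that follows length was removed with it. Alternatives were DESeq2 1.42.0, its size factors in edgeR, no filter, a filter at a mean of 5 CPM, a fit to only the groups compared, a replicate block, limma 3.58.1 on log2(FPKM + 1) above a mean FPKM of 0.5, TPM in place of FPKM, and each library left out. Intervals are 95% from the fit.

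The members and gene lists, and the choice to remove the length trend, were made with earlier results of these data known. Named were all members, and of each list for IFN-γ up to 5 called genes, ranked by the size of their log2 fold change, whose groups did not overlap and whose log2 CPM averaged over 0, and for the siRNA any called gene. Likeness used log2 CPM with a prior count of 2.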

Additional observations from a re-analysis of the deposited data

How the results depend on the processing

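Bcl3 was called with IFN-γ for both siRNAs in all 21 alternatives. With siR_Ctrl, where 1 member was called, DESeq2 and limma called 2, removal of the length trend 5, the same with a replicate block 5, and fits without 1 library 1 to 2. Over all genes DESeq2 called 838 of 12957 and limma 525 of 11095. Removal of the length trend called 1327 of 11900 genes, the same with a replicate block 1434, and fits without 1 library 489 to 589. With siR_Nostrill, where Nfkb1 and Bcl3 were called, limma called Rela (adjusted p = 0.0469) and Bcl3 but not Nfkb1 (adjusted p = 0.0705), DESeq2 called 4, DESeq2 size factors 1, no filter 1, a filter at a mean of 5 CPM 1, a fit to only the groups compared 4, removal of the length trend 5, the same with a replicate block 6, and fits without 1 library 1 to 4. Over all genes limma called 883 of 11095, DESeq2 1330 of 12666 and its size factors 821 of 11900. No filter gave 728 of 14993 genes, the filter of 5 CPM 705 of 9868 and only the groups compared 1997 of 11714. Removal of the length trend gave 2246 of 11900 genes, and the same with a replicate block 2663. With IFN-γ the replicate block with the length trend removed called 1 member for the siRNA (Bcl3), against 1891 of 11900 genes. Averaged over both states, DESeq2 called 1 (against 782 of 11504 genes) and a filter at a mean of 5 CPM 1 (against 302 of 9868). Removal of the length trend called 2 (against 1618 of 11900). That with a replicate block called 3 (Nfkb1, Bcl3 and Tnfaip3), against 1872 of 11900 genes. The replicate block alone called the same 1 and 2 members for IFN-γ (against 644 and 943 of 11900 genes) and 0 for the siRNA. Correlations between libraries of one replicate number ran from -0.495 to 0.725, and from -0.275 to 0.486 with the length trend removed. Libraries of different numbers were not compared in this way, so whether the numbers pair the samples was not tested. For all genes, removal of the length trend moved the calls for IFN-γ from 649 to 1327 and from 807 to 2246, those for the siRNA from 26 to 405 without IFN-γ, from 51 to 1541 with it and from 257 to 1618 averaged, and the replicate block with the trend removed moved the interaction from 0 to 250, none of them a member. DESeq2 called 257, 601 and 782 for the siRNA and 1330 for IFN-γ with siR_Nostrill, while only the groups compared gave 0 for the siRNA in either state, 341 for IFN-γ with siR_Ctrl and 1997 with siR_Nostrill. Fits without 1 library gave from 491 to 1138 in place of 807 for IFN-γ with siR_Nostrill, with 491 and 500 without replicate 2 of siR_Nostrill and of siR_Nostrill + IFN-γ cells. The filter of 5 CPM gave 105 and limma 135 for the siRNA with IFN-γ, whereas no filter gave 30 and the replicate block 32. Averaged over both states, no filter gave 168 in place of 257.

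Of 39 log2 fold changes, each under 20 or 21 alternatives (804 pairs), 731 pairs kept direction and side of the threshold, 34 came to pass it, 12 no longer did and 27 reversed. None of the values that reversed was called in the fit to the counts. With the length trend removed, Rel with IFN-γ in siR_Ctrl cells was 0.14 (0.15 with the replicate block too), Relb in siR_Nostrill cells 0.028 and 0.0292, averaged Rela -0.00017 and -0.00063, averaged Rel 0.0111 and 0.0117, and the Bcl3 interaction 0.0859 and 0.0763, or 0.00043 in limma. Without 1 library, Rel ranged from -0.16 to 0.27 and Nfkbib from -0.0256 to 0.312 with siR_Ctrl, Relb from -0.121 to 0.0284, Nfkbib from -0.0577 to 0.0776 and Nfkbie from -0.0198 to 0.0463 with siR_Nostrill, and averaged Rela from -0.00336 to 0.0337, Rel from -0.1998 to 0.0177 and Relb from -0.0758 to 0.031. The cause was not tested. In TPM, levels of a library were 1.26 to 1.75 times the FPKM. TPM rescales all genes of a library by 1 factor, so shares within a class could differ only by rounding and were not checked by it. With 3 libraries a group, small changes of Rel and Nfkbib were limited by spread between libraries in the fit to the counts.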
